A study of Mus musculus with 35 samples.

Results

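Cybb, Cyba, Ncf1, Ncf4 and Rac2 encode parts of the phagocyte NADPH oxidase, and Sod2, Cat, Gpx1 and Txnrd1 encode enzymes that remove reactive oxygen species or repair oxidized proteins. These 9 genes, of 53379 in the count table, were chosen by symbol through their Ensembl identifiers, and all 9 were measured in every comparison. The libraries came from 8 female C57BL/6 mice that carried orthotopic tumors of T110299 cells, a pancreatic cancer line from 1 genetically engineered mouse with a pancreas-directed Cre. All mice carried tumors, the untreated ones included. On days 18 and 20 after implantation, 4 mice received poly(I:C)c intravenously, which is 50 µg of synthetic double-stranded RNA complexed with in vivo-jetPEI at an N/P ratio of 6, and 4 mice received glucose and are called untreated. Myeloid-derived suppressor cells (MDSC), which are myeloid cells that dampen T cell responses, were enriched by CD11b and sorted from spleen and tumor as Ly6Clo Ly6G+ polymorphonuclear cells (PMN-MDSC) or Ly6Chi Ly6G- monocytic cells (M-MDSC). Whole tumors of untreated mice were lysed without sorting (bulk tumor). Groups held 4 libraries each, except 3 for treated PMN-MDSC from spleen and 3 for treated M-MDSC from tumor. Libraries are named by the running number of their column.

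In phagocytes, the oxidase transfers electrons from NADPH to oxygen and makes superoxide. Cybb and Cyba form the membrane part, Ncf1 and Ncf4 belong to the cytosolic part that joins it upon activation, and the small GTPase Rac2 is needed for the assembled complex. Superoxide is converted to hydrogen peroxide, in mitochondria by Sod2, and the peroxide is removed by Cat and Gpx1, while Txnrd1 keeps thioredoxin reduced. Reactive oxygen species made by this oxidase are among the known means by which PMN-MDSC inhibit T cells.

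RefSeq promoter windows of build GRCm38.p6, from 250 bases before to 50 bases after an annotated start, were found for 7 of the 9 genes (9 windows), and Ncf4 and Rac2 are only named. Shown are the windows of Sod2 (chr17:13007589-13007888, plus strand), Ncf1 (chr5:134229576-134229875, minus strand), Cybb (chrX:9469275-9469574, minus strand) and 1 of 3 windows of Txnrd1 (chr10:82858956-82859255, plus strand). Each window shown holds a match to a motif marked in capitals. Those of Cat, Cyba and Gpx1, which hold no such match, are not shown. On GRCm38 the 9 genes lie at chrX:9435252-9487771 (Cybb), chr8:122424776-122432930 (Cyba), chr5:134220053-134229625 (Ncf1), chr15:78244801-78262580 (Ncf4), chr15:78559167-78572783 (Rac2), chr17:13006846-13040063 (Sod2), chr2:103453849-103485160 (Cat), chr9:108338903-108340343 (Gpx1) and chr10:82833951-82897712 (Txnrd1). Ncf1 overlaps Gtf2ird2 on the opposite strand, and the counting used strand. Capitals mark matches, on either strand, to the interferon-stimulated response element (ISRE, GAAA, any 2 bases and GAAA), the gamma-activated site (GAS, TTC, any 3 bases and GAA) or the antioxidant response element (ARE, TGAC, any 3 bases and GC).
Sod2: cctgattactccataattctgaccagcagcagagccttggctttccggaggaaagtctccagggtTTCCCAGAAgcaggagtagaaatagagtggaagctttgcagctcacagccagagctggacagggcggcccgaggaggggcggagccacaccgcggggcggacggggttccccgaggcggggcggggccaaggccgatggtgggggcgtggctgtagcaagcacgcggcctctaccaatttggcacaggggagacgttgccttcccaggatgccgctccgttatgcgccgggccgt
Ncf1: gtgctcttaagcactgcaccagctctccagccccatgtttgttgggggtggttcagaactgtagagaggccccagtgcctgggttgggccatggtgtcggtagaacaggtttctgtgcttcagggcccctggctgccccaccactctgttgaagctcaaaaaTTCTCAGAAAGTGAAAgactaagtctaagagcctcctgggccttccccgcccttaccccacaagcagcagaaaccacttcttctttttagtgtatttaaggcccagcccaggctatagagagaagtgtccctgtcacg
Cybb: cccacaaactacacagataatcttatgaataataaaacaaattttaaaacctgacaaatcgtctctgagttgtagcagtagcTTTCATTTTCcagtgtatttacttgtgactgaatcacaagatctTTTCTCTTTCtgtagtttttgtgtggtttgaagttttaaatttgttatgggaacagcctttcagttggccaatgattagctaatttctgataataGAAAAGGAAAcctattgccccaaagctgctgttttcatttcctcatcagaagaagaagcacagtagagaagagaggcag
Txnrd1: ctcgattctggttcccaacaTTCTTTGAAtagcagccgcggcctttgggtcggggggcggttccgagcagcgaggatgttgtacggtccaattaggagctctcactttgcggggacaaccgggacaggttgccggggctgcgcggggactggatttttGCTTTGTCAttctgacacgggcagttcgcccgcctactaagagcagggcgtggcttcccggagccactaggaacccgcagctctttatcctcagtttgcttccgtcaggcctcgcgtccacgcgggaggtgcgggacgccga

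Counted from the start base as 0, Cybb held 3 ISRE matches, at -168 to -159, -124 to -115 and -29 to -20. Ncf1 held 1 ISRE match at -82 to -73, which overlaps a GAS match at -88 to -80. Sod2 held a GAS match at -185 to -177. The Txnrd1 window held a GAS match at -230 to -222 and an ARE match at -92 to -84, and a second Txnrd1 window (start 82860091) held a GAS match at -73 to -65. Cyba and Gpx1 held none of the motifs searched, which also included an ETS motif (GAGGAA, in 28.3% of windows) and a kappaB motif (GGG, any 2 bases and TTTCC, in 1.63%). The ETS letters were in the windows of Cat (-235 to -230, its only match), Sod2 (-203 to -198) and Cybb (9 to 14) and, at -169 to -164 and -84 to -79, in the Txnrd1 window that starts at 82833701, and are not in capitals above. Of 32851 RefSeq windows of this length, 3.44% held the ISRE letters, 8.3% the GAS letters and 12.4% the ARE letters, and a match of letters is not a binding site.

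The 30 MDSC libraries held 793070 to 4357105 counts and the 4 bulk tumor libraries 3771590 to 8886115. Markers of the sorted cell types were checked first, as the sum over each list in CPM (counts scaled to library size). Libraries labelled PMN-MDSC from tumors went against their label in part. The sum of 9 neutrophil markers was 20109.7 to 36814 CPM in untreated PMN-MDSC from spleen but 998 to 3819 CPM in those from tumors, and Ly6g, the sorting antigen, had a median of 67.1 CPM in the first and 1.31 CPM in the second. The sum of 8 macrophage markers was 574 to 1632 CPM in untreated PMN-MDSC from spleen, 10389.6 to 13683 CPM in PMN-MDSC from tumors and 4183 to 8775 CPM in M-MDSC from tumors. The neutrophil marker Cxcr2 went with the label, at a median of 253.9 CPM in untreated PMN-MDSC and 3.49 CPM in M-MDSC from tumors. The monocyte marker Ly6c2 did not separate the cell types in treated spleen. It stood at 797.9 to 1469.2 CPM in PMN-MDSC and 669.6 to 873.3 CPM in M-MDSC. In bulk tissue and sorted samples, fewer cells of a type and less RNA per cell cannot be told apart. The sum of 8 interferon response genes was 417 to 846 CPM in untreated and 4671 to 15969.9 CPM in treated PMN-MDSC from spleen, and treated libraries lay above untreated ones in all 4 sorted populations.

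**Figure D1:**
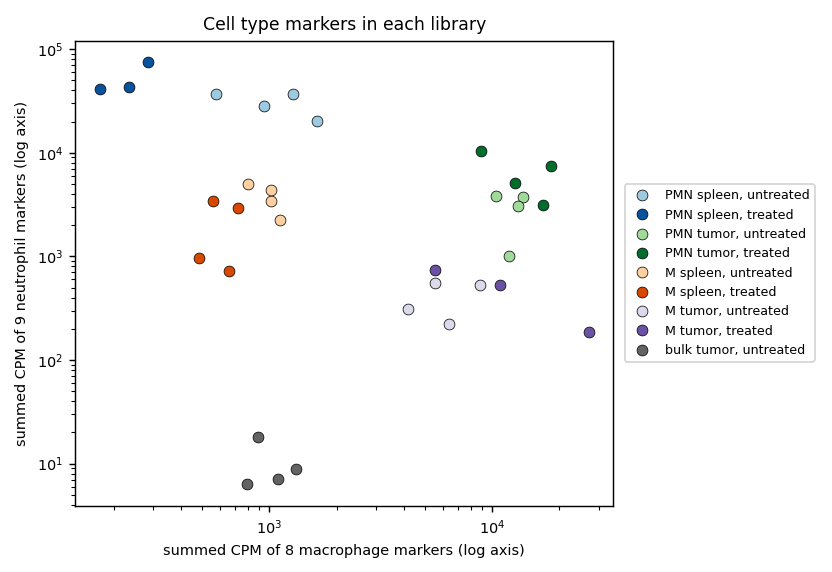
Summed CPM of 9 neutrophil markers (vertical, log axis) against summed CPM of 8 macrophage markers (horizontal, log axis), 1 point for each of 34 libraries, coloured by group. PMN-MDSC from spleen sit at the top left, while PMN-MDSC from tumors lie to the right of M-MDSC from spleen at a similar height.

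Per length of exon, Gpx1 and the 5 oxidase genes were the most abundant of the 9 in every sorted group. Gpx1 or Ncf1 ranked highest in each. In untreated PMN-MDSC from spleen, the mean level in FPKM (CPM divided by the exon length in kilobases) was 449 ± 175 for Gpx1, 373 ± 138 for Rac2, 346 ± 76.2 for Ncf1, 324 ± 82.0 for Cyba, 194 ± 74.1 for Cybb and 149 ± 48.2 for Ncf4 (SD, n = 4). The first 4 of these did not differ by more than their spread. Cat (13.1 ± 3.67 FPKM), Txnrd1 (12.5 ± 0.591 FPKM) and Sod2 (2.29 ± 1.04 FPKM) followed at a distance. In untreated M-MDSC from spleen, the order was Gpx1 (446 ± 63.9 FPKM), Cybb (257 ± 19.6), Cyba (227 ± 29.7), Ncf1 (89.8 ± 9.73), Rac2 (75.2 ± 6.52) and Ncf4 (62.3 ± 8.46), followed by Cat (28.9 ± 1.59), Txnrd1 (10.8 ± 1.42) and Sod2 (4.67 ± 0.561). The 2 cell types therefore differed in the balance of the oxidase transcripts: within a library, the FPKM of Ncf1 was 1.09 to 3.44 times that of Cybb in untreated PMN-MDSC from spleen and 0.286 to 0.41 times in M-MDSC. In tumors the same ratio was 1.63 to 3.55 in untreated PMN-MDSC and 0.574 to 0.786 in M-MDSC, again without overlap.

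**Figure D2:**
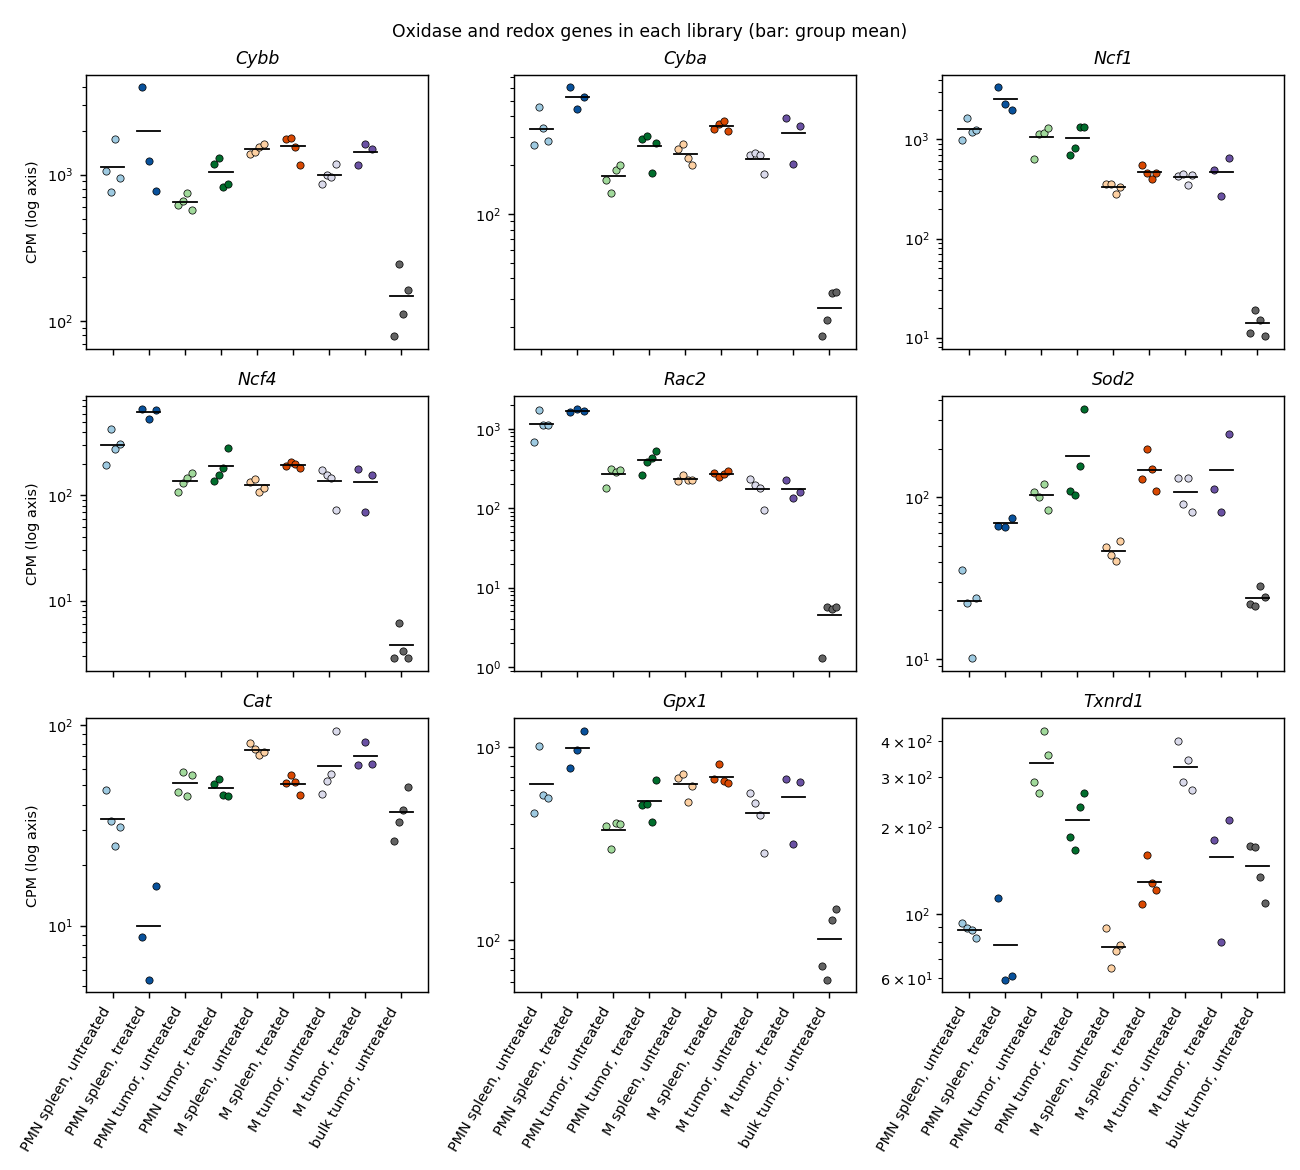
CPM (log axis) of the 9 genes in each of 34 libraries, by group, with the group mean as a bar. Txnrd1 is higher in every untreated tumor MDSC library (263 to 434 CPM) than in every untreated spleen library (64.9 to 92.9 CPM), and Ncf1, Ncf4 and Rac2 are lowest in bulk tumor.

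Untreated PMN-MDSC and M-MDSC from the same organ were compared to see how the 2 cell types differ. In spleen, the cytosolic and accessory oxidase genes were higher in PMN-MDSC, the membrane subunit Cybb was not, and Sod2 and Cat were lower. Ncf1, the organizer subunit, stood at 979, 1648, 1195 and 1252 CPM in PMN-MDSC and at 357, 352, 279 and 328 CPM in M-MDSC. These groups did not overlap, and the log2 difference was 1.95 ± 0.19 (SE; edgeR adjusted p = 2.3e-05). Rac2 stood at 673, 1714, 1131 and 1107 CPM against 220.4, 264, 224 and 226 CPM, a log2 difference of 2.31 ± 0.26 (adjusted p = 5.1e-05). Ncf4 differed by 1.26 ± 0.23 on the log2 scale (adjusted p = 9.8e-04). Cyba was higher by 0.51 ± 0.19 (adjusted p = 0.04), with groups that overlapped. Cat stood at 47.6, 33.1, 25 and 31 CPM in PMN-MDSC and at 80.9, 75.9, 71.1 and 73.7 CPM in M-MDSC (log2 difference -1.13 ± 0.19, adjusted p = 6.8e-04). Sod2 was lower in PMN-MDSC as well, at 10.1 to 35.5 CPM against 40.6 to 53.4 CPM (-1.01 ± 0.30, adjusted p = 0.014). Cybb, Gpx1 and Txnrd1 did not pass the threshold, with log2 differences of -0.41, 0.01 and 0.20 and 95% confidence intervals of -0.95 to 0.14, -0.55 to 0.56 and -0.10 to 0.51. In all, 6 of the 9 genes passed an adjusted p-value under 0.05, where 63.5% of all genes tested did, and the median log2 difference was 0.20 for the 9 genes and 0.11 for all genes. Groups did not overlap for 5 of the 9 genes, as for 58.1% of all genes. Other markers moved with this comparison too, and their part in it was not tested. PMN-MDSC held more red pulp macrophage (1004 to 1456 against 137 to 229 CPM), dendritic cell (295 to 449 against 39.3 to 132 CPM, 1 of 5 at 0 in M-MDSC), eosinophil (79 to 146 against 10.2 to 54.3 CPM), erythroid (79.8 to 222 against 25.2 to 54.4 CPM), endothelial (29.8 to 73.9 against 19.6 to 28.4 CPM), tumor epithelial (19 to 46.8 against 5.25 to 9.14 CPM), acinar (1.61 to 5.76 against 0 to 0.338 CPM) and interferon response RNA (417 to 846 against 274 to 320.1 CPM), less monocyte RNA (819 to 2275 against 4938 to 7703 CPM) and a smaller share of mitochondrial counts (2.63 to 5.27% against 7.71 to 9.25%). The call for Cyba was lost in 5 of 8 fits that left out 1 library (5, 17, 2, 18 or 22; highest adjusted p = 0.111), under DESeq2 (adjusted p = 0.1) and under both other scalings (adjusted p = 0.0558 and 0.122).

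Of 48 further genes of the oxidase and of redox defence, 32 were tested in that comparison, of which 17 were higher in PMN-MDSC, 9 were lower and 6 did not pass. Higher were Slc7a11, the cystine transporter that feeds glutathione synthesis (185 against 12.2 CPM on average, log2 difference 3.90), Txnip, an inhibitor of thioredoxin (2.47), Pgd of the NADPH-making pentose phosphate pathway (1.82) and glutaredoxin Glrx (1.74). Lower were Mpo, the myeloperoxidase of early granulocytes and monocytes (1.33 against 46.1 CPM, -5.18), Gsto1 (-1.86), mitochondrial peroxiredoxin Prdx3 (-1.61) and mitochondrial thioredoxin Txn2 (-1.08). The largest adjusted p among these 8 genes was 0.00131.

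In tumors, libraries labelled PMN-MDSC and M-MDSC were compared in the same way. Of the 9 genes, only Ncf1 and Cybb passed the threshold, which is 2 of 9 where 13.4% of all genes passed. Ncf1 was higher in PMN-MDSC, at 636, 1145, 1147 and 1292 CPM against 426, 445, 349 and 439 CPM in M-MDSC (log2 difference 1.35 ± 0.21, adjusted p = 0.00126). Cybb was lower, at 618, 665, 749.6 and 577 CPM against 859, 992, 965 and 1182 CPM (-0.61 ± 0.15, adjusted p = 0.0194). Groups did not overlap for these 2 genes, as for 19.9% of all genes, but the call for Cybb was lost without library 23 (adjusted p = 0.0674) and in 1 fit over all 9 groups (adjusted p = 0.272). For Rac2 the log2 difference was 0.61 with an interval of 0.07 to 1.15 (adjusted p = 0.131), and for the other 6 genes it lay between -0.37 and 0.04. The macrophage sum was higher in the libraries labelled PMN-MDSC (10389.6 to 13683 against 4183 to 8775 CPM), as were those of neutrophil (998 to 3819 against 222 to 549.7 CPM), red pulp macrophage (4 genes, 336 to 538 against 108 to 235 CPM), dendritic cell (316 to 374 against 93 to 127 CPM), eosinophil (4 genes, 87.8 to 228 against 2.19 to 34.2 CPM) and endothelial markers (4 genes, 46.3 to 67.3 against 20.6 to 41.5 CPM, 1 at 0 in both), while the sum of 6 monocyte markers was lower (4336 to 8255 against 8897 to 11734 CPM). The part of these sums in the result was not tested. Of the further genes, 5 of 32 tested were higher in PMN-MDSC, among them Txnip (2.14), Slc7a11 (1.79), the proton channel gene Hvcn1 (1.54) and Nfe2l2 (0.50), which encodes the antioxidant regulator NRF2. Only G6pdx, the entry enzyme of the pentose phosphate pathway, was lower (-0.82, adjusted p = 0.0115).

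Tumor and spleen were compared in untreated mice to see how the site of the cells bears on these genes. In both cell types Txnrd1 and Sod2 were higher in tumors and Cybb was lower. Txnrd1 stood at 288, 263, 434 and 358 CPM in PMN-MDSC from tumors and at 92.9, 89.2, 87.9 and 82.8 CPM in those from spleen, a log2 difference of 1.93 ± 0.19 (adjusted p = 2.1e-05). In M-MDSC it stood at 400.5, 289, 344 and 269.8 CPM in tumors and at 89.2, 64.9, 74.5 and 78.1 CPM in spleen, a difference of 2.09 ± 0.16 (adjusted p = 1.9e-06). The lowest tumor library was thus far above the highest spleen library in each cell type. Sod2 stood at 108, 101, 120.4 and 83.5 CPM against 35.5, 22.3, 10.1 and 23.8 CPM in PMN-MDSC (2.15 ± 0.31, adjusted p = 1.9e-04), and at 131, 90.3, 131 and 80.9 CPM against 49.0, 44.0, 40.6 and 53.4 CPM in M-MDSC (1.23 ± 0.18, adjusted p = 3.5e-04). Cybb was 1.73-fold lower in tumor PMN-MDSC (adjusted p = 0.0219) and 1.5-fold lower in tumor M-MDSC (adjusted p = 0.00709). The first call was lost with TMM factors within the comparison (adjusted p = 0.0557) and the second in 1 fit over all 9 groups (adjusted p = 0.243).

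Of the other oxidase genes, Rac2, Ncf4 and Cyba were lower in tumor PMN-MDSC and Ncf1 did not pass. Rac2 was 4.29-fold lower in tumors, at 180.4, 309, 289 and 299.95 CPM against 673, 1714, 1131 and 1107 CPM in spleen (-2.10 ± 0.30, adjusted p = 1.6e-04). Ncf4 fell by 1.13 ± 0.24 and Cyba by 0.98 ± 0.22 on the log2 scale (adjusted p = 0.00238 and 0.00265), and Gpx1 was 1.73-fold lower (adjusted p = 0.0209). Cat was 1.49-fold higher in tumors (adjusted p = 0.0425), but this call was lost in 6 of 8 fits that left out 1 library (5, 17, 21, 3, 7 or 23; highest adjusted p = 0.116). The calls for Cybb (without library 17 or 23) and Gpx1 (without library 7) were each lost too, at adjusted p-values of up to 0.0778 and 0.0648. Ncf1 stood at -0.27 with an interval of -0.83 to 0.30. In PMN-MDSC, 8 of the 9 genes passed, 3 higher and 5 lower, where 59.4% of all genes did, higher for 24.6% and lower for 34.8%, and their median of -0.79 compares with -0.15 for all genes. Groups did not overlap for 7 of the 9 genes, as for 55.1% of all genes. The neutrophil and macrophage sums given above moved with this comparison, with no marker at 0 in every library of either group. So did those of monocyte (819 to 2275 CPM in spleen, 4336 to 8255 CPM in tumors), red pulp macrophage (1004 to 1456 CPM, 336 to 538 CPM), erythroid (79.8 to 222 CPM, 0 to 18.8 CPM) and tumor epithelial markers (19 to 46.8 CPM, 87.6 to 598 CPM, with 3 and 1 of 6 at 0). Lower in tumors too were the B cell (29.8 to 68.7 CPM, 2.93 to 9.38 CPM), T cell (6.06 to 10.8 CPM, 0 to 3.86 CPM) and interferon response sums (417 to 846 CPM, 208 to 264 CPM), and higher were fibroblast (2.42 to 10.1 CPM, 25.2 to 48.6 CPM) and acinar sums (1.61 to 5.76 CPM, 15.8 to 65.7 CPM). The part of all these sums in the result was not tested. In M-MDSC, 3 of the 9 genes passed where 28.4% of all genes did, with medians of -0.10 and 0.02. Those 3 were also the genes without overlap, as for 31.4% of all genes. Cyba, Ncf1, Ncf4, Rac2, Cat and Gpx1 did not pass, with log2 differences from -0.49 to 0.33. The macrophage sum also moved in M-MDSC, from 805 to 1116 CPM in spleen to 4183 to 8775 CPM in tumors, as did the neutrophil sum, from 2257 to 5043 CPM to 222 to 549.7 CPM. Monocyte (4938 to 7703 CPM in spleen, 8897 to 11734 CPM in tumors), tumor epithelial (5.25 to 9.14 CPM, 17 to 232 CPM), erythroid (25.2 to 54.4 CPM, 0 to 19.8 CPM), B cell (10.2 to 48.5 CPM, 1.28 to 6.05 CPM) and acinar sums (0 to 0.338 CPM, 4.92 to 16.6 CPM) moved too, and their part was not tested. The mitochondrial share of counts was 7.17 to 15.3% in tumor PMN-MDSC against 2.63 to 5.27% in those from spleen, and its part was not tested either.

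Among the further redox genes, 10 of 31 tested were higher in tumor PMN-MDSC and 16 lower, and 4 of 35 were higher and 9 lower in tumor M-MDSC. Srxn1, a sulfiredoxin that repairs peroxiredoxins, was higher in both (2.65 in PMN-MDSC, adjusted p = 7.9e-05; 2.04 in M-MDSC, adjusted p = 1.2e-04). Nfe2l2 (1.46), Slc7a11 (3.05) and Prdx6 (1.76) were higher in tumor M-MDSC, and Gpx3 (4.15), Gsto1 (1.81) and Prdx1 (1.61) in tumor PMN-MDSC, each with an adjusted p of at most 0.00231. G6pdx was lower in both cell types, by 2.53 in PMN-MDSC and 0.71 in M-MDSC on the log2 scale. Lower as well were Pgd (-2.04), Glrx (-2.14) and the microsomal glutathione transferase Mgst1 (-3.10) in PMN-MDSC, and Txnip (-1.68), glutathione reductase Gsr (-0.67) and Rap1a (-0.63) in M-MDSC.

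**Figure D3:**
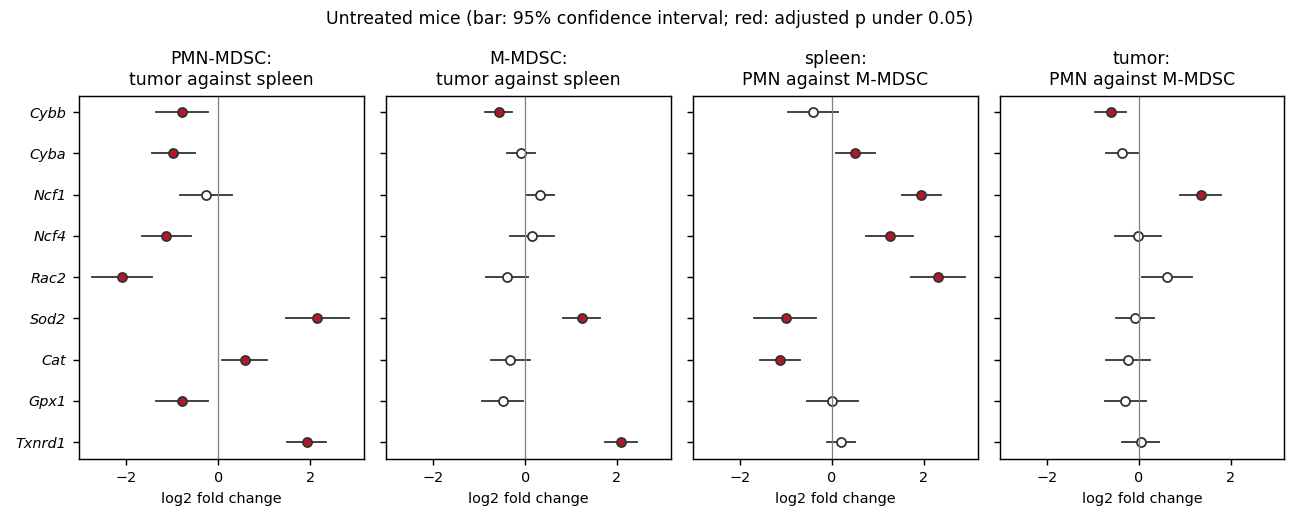
Log2 fold change of the 9 genes between untreated groups (points, with 95% confidence intervals as bars and red where the adjusted p-value is under 0.05). The first and second panels compare tumor with spleen and the others PMN-MDSC with M-MDSC. Sod2 and Txnrd1 lie to the right of 0 in both tumor panels, at 2.15 and 1.93 in PMN-MDSC and 1.23 and 2.09 in M-MDSC.

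Treated and untreated mice were compared to see what poly(I:C)c does to these genes. In M-MDSC from spleen, Sod2, Txnrd1, Ncf4, Cyba and Ncf1 rose and Cat fell, which is 6 of the 9 genes, where 18.9% of all genes passed. Sod2 stood at 49.0, 44.0, 40.6 and 53.4 CPM in untreated and at 129, 200.5, 150.2 and 109 CPM in treated mice. All treated libraries lay above all untreated ones, and the log2 change was 1.65 ± 0.19 (adjusted p = 4.4e-04). Txnrd1 rose from 89.2, 64.9, 74.5 and 78.1 CPM to 108, 160.1, 129 and 121 CPM (0.76 ± 0.15, adjusted p = 0.00741). Ncf4 rose from 135, 144, 107 and 117 CPM to 189, 207, 198 and 180.3 CPM (0.62 ± 0.13, adjusted p = 0.00793). Cyba rose by 0.56 ± 0.13 (adjusted p = 0.0146) and Ncf1 by 0.50 ± 0.14 (adjusted p = 0.0366), so these oxidase genes changed by less than 1 log2 unit. Cat fell from 80.9, 75.9, 71.1 and 73.7 CPM to 51.1, 56.3, 51.7 and 44.6 CPM (-0.56 ± 0.11, adjusted p = 0.00751). The 2 arms were separate for these 6 genes, as for 25.1% of all genes. Cybb stood at 1378, 1427, 1545 and 1629 CPM in untreated and 1756, 1780.1, 1548 and 1159.6 CPM in treated mice, a log2 change of 0.06 with an interval of -0.31 to 0.43. Rac2 (0.22, interval -0.04 to 0.48) and Gpx1 (0.13, interval -0.20 to 0.47) did not pass either. The median change was 0.50 over the 9 genes and 0.01 over all genes. Treated M-MDSC from spleen also held more endothelial RNA (4 markers, 110 to 269 against 19.6 to 28.4 CPM, 1 at 0 in both arms) and less monocyte (2812 to 4270.4 against 4938 to 7703 CPM), macrophage (484 to 724 against 805 to 1116 CPM) and erythroid RNA (0.608 to 2.69 against 25.2 to 54.4 CPM, 3 of 7 at 0 in treated libraries), and the part of these in the result was not tested. Calls for Ncf1 were lost in 5 of 8 fits that left out 1 library (2, 6, 10, 18 or 22) and for Cyba in 2 (18 or 22), and in 1 fit over all 9 groups only Sod2 and Txnrd1 passed. The Ncf1 call was also lost with TMM factors within the comparison (adjusted p = 0.0503) and without a filter on low counts (adjusted p = 0.0546).

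In PMN-MDSC from spleen, Sod2 and Ncf4 rose and Cat fell, which is 3 of the 9 genes, where 11.7% of all genes passed. Sod2 stood at 35.5, 22.3, 10.1 and 23.8 CPM in untreated and at 66.5, 65.5 and 74.7 CPM in treated mice (1.58 ± 0.36, adjusted p = 0.024). Ncf4, at 194, 429, 276 and 308 CPM against 666, 529 and 654 CPM, rose by 1.03 ± 0.28 (adjusted p = 0.0463). Cat fell from 47.6, 33.1, 25 and 31 CPM to 8.75, 5.36 and 15.8 CPM (-1.76 ± 0.41, adjusted p = 0.0263), and the treated values rest on 10, 9 and 31 counts. No overlap of the arms was seen for these genes and for Ncf1, 4 of the 9, as for 24.9% of all genes. Ncf1 stood at 979, 1648, 1195 and 1252 CPM against 3375, 2259 and 1996 CPM, a 2.01-fold change (log2 SE 0.29) that just missed the threshold (adjusted p = 0.055) and passed it under DESeq2, under both other scalings, without a filter on low counts and in 1 fit over all 9 groups. Cybb stood at 1054, 758, 1747 and 950.2 CPM against 3979, 1244 and 773 CPM. Library 9 held the highest value, and the log2 change of 0.83 (adjusted p = 0.373) became -0.16 without it. Cyba (0.64), Rac2 (0.55) and Gpx1 (0.62) did not pass, with adjusted p-values of 0.144, 0.304 and 0.262, and Txnrd1 stood at -0.19 with an interval of -0.77 to 0.40. The median change was 0.64 over the 9 genes and -0.02 over all genes.

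The number of genes that passed in this comparison depended on single libraries. It was 1 without untreated library 1, 6 without untreated library 5, 0 without untreated library 21 or treated library 25, and 1 without treated library 29. Ncf4 was lost in 6 of 7 such fits (without library 1, 9, 17, 21, 25 or 29), Sod2 in 3 (21, 25 or 29) and Cat in 3 (1, 21 or 25), with no change of sign in any of the 3 genes. Other cell types moved with the fall of Cat. The sum of 7 erythroid markers went from 79.8 to 222 CPM in untreated to 0.508 to 9.62 CPM in treated PMN-MDSC from spleen, with 3 of the 7 at 0 in every treated library. The macrophage sum of PMN-MDSC from spleen went from 574 to 1632 CPM to 173 to 285 CPM (0 of 8 markers at 0) and the sum of 5 dendritic cell markers from 295 to 449 CPM to 10.7 to 92.3 CPM (2 of 5 at 0). Sums of 4 eosinophil markers (79 to 146 CPM in untreated, 8.13 to 35 CPM in treated libraries) and 4 endothelial markers (29.8 to 73.9 CPM, 13.1 to 24.4 CPM) were lower as well, as were tumor epithelial (19 to 46.8 CPM, 3.05 to 14.9 CPM, 3 of 6 at 0 in both) and acinar sums (1.61 to 5.76 CPM, 0 to 1.02 CPM). Treated libraries also held fewer genes with at least 1 count (14456 to 15692 against 17684 to 20072) and a higher mitochondrial share of counts (5.31 to 5.92% against 2.63 to 5.27%). The part of these values in the result was not tested. The neutrophil sum moved the other way, to 41397 to 75328 CPM in treated libraries (0 of 9 at 0), and its part in the values of Ncf1, Ncf4 and Rac2 was not tested.

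Further redox genes that rose in PMN-MDSC from spleen were mitochondrial and peroxisomal peroxiredoxin Prdx5 (307 to 908 CPM on average, 1.56, adjusted p = 0.00762), Glrx (1.18, adjusted p = 0.0314) and Keap1, the inhibitor of NRF2 (1.08, adjusted p = 0.0246), while Prdx1 fell (-1.89, adjusted p = 0.0413), and the other 24 of 28 tested did not pass. In M-MDSC from spleen, 8 of 36 tested rose, among them thioredoxin Txn1 (32.2 to 80.0 CPM on average, 1.31, adjusted p = 1.3e-04), Prdx5 (0.91), Prdx1 (0.78) and Glrx (0.55), and Txnip fell (-0.77, adjusted p = 0.00357). Prdx1 thus rose in one cell type and fell in the other, and the difference of its treatment effects passed the threshold (-2.68 ± 0.49, adjusted p = 0.00472). The fall rests on low values, 7.15 to 12.2 CPM in 3 treated against 16.1 to 62.9 CPM in 4 untreated libraries of PMN-MDSC from spleen. Values of Prdx1 without single libraries are not given.

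In tumors, none of the 9 genes passed in either cell type by edgeR, where 3.42% of all genes passed in PMN-MDSC and 2.93% in M-MDSC. At an unadjusted p-value under 0.05 there were 6 genes in the first and 2 in the second cell type, where 18.3% and 19.1% of all genes fell under it. DESeq2 called 2 (Cybb and Txnrd1) and 1 (Txnrd1), where it called 7.38% and 9.55% of all genes. Txnrd1 stood at 288, 263, 434 and 358 CPM in untreated and at 185, 167, 235 and 264 CPM in treated PMN-MDSC, where 1 treated library lay within the untreated range (log2 change -0.66 ± 0.21, adjusted p = 0.134). In M-MDSC it stood at 400.5, 289, 344 and 269.8 CPM against 182, 80.0 and 213 CPM, without overlap (-1.05 ± 0.33, adjusted p = 0.117). Without treated library 28, in which the macrophage sum was highest at 27043 CPM, the change was -0.73. Cybb stood at 618, 665, 749.6 and 577 CPM against 1187, 1306, 824 and 858 CPM in PMN-MDSC, also without overlap (0.68 ± 0.21, adjusted p = 0.119). Groups did not overlap for 2 of the 9 genes in PMN-MDSC (Cybb and Gpx1) and 1 in M-MDSC (Txnrd1), as for 12.1% and 19.4% of all genes. Sod2 spanned a wider range of CPM in treated tumors than in the other groups, at 109, 103, 157 and 353 CPM in PMN-MDSC and 113, 81.2 and 247 CPM in M-MDSC, with changes of 0.80 (interval 0.00 to 1.60) and 0.43 (interval -0.41 to 1.26). Cyba stood at 0.62 (interval 0.17 to 1.06) and 0.52 (interval -0.03 to 1.08). The sum of 6 monocyte markers moved with treatment as well, from 4336 to 8255 CPM to 1595 to 2738 CPM in PMN-MDSC and from 8897 to 11734 CPM to 2234 to 4788 CPM in M-MDSC from tumors (0 of 6 at 0). In M-MDSC from tumors, dendritic cell (143 to 576 against 93 to 127 CPM, 1 of 5 at 0 in treated libraries) and endothelial sums (70.3 to 143 against 20.6 to 41.5 CPM, 1 of 4 at 0 in untreated libraries) were higher with treatment. Their part in these values was not tested. The median changes were 0.50 and 0.19 over the 9 genes, and 0.03 and 0.00 over all genes. Of the further genes, Glrx (1.29) and Txn1 (1.09) rose in PMN-MDSC (adjusted p = 0.0231 for both, 2 of 32 tested) and Hvcn1 in M-MDSC (2.20, adjusted p = 0.044, 1 of 36 tested).

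**Figure D4:**
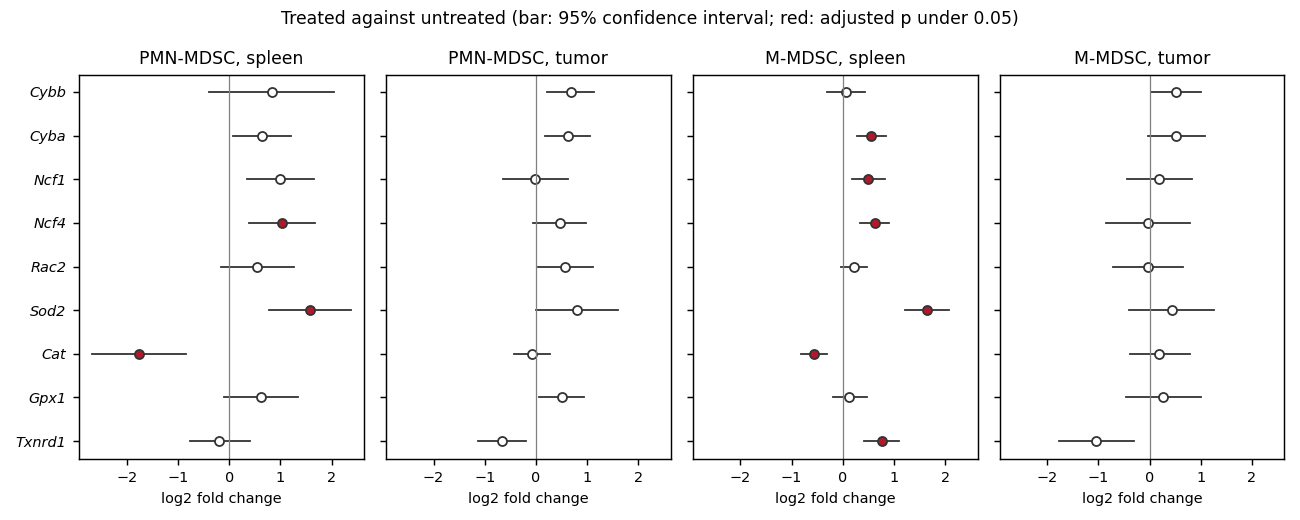
Log2 fold change of the 9 genes in treated against untreated mice (points, with 95% confidence intervals as bars and red where the adjusted p-value is under 0.05) in the 4 sorted populations. Red points are 3 and 6 in the spleen panels and 0 in both tumor panels, and Txnrd1 lies at -1.05 in tumor M-MDSC and at 0.76 in spleen M-MDSC.

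Treatment effects were then compared with each other by interaction terms. For Txnrd1 in M-MDSC, the effect in tumor was lower than that in spleen by 1.81 ± 0.36 on the log2 scale (-1.81, adjusted p = 0.0368), and it was the only one of the 9 genes to pass, where 0.825% of all genes did. The call was kept without library 10, 16, 28, 30 or 32 and lost without any of the other 10 libraries (highest adjusted p = 0.0932), with values from -2.08 to -1.48. Without library 32, Sod2 passed as well, so that 2 genes did. For Cat in PMN-MDSC, the effect in tumor exceeded that in spleen by 1.67 ± 0.40 (adjusted p = 0.0279), 1 of the 9 genes where 3.98% of all genes passed, and the all-gene median was 0.15. This call was lost in 6 of 15 such fits (without library 1, 25, 3, 11, 15 or 19; highest adjusted p = 0.0622). Cat stood at 46.3, 58.5, 44.2 and 56.6 CPM in untreated and 51, 53.5, 44.6 and 44.5 CPM in treated PMN-MDSC from tumors. In spleen, the effect on Txnrd1 was lower in PMN-MDSC than in M-MDSC (-0.95 ± 0.29, adjusted p = 0.0498), 1 of the 9 genes where 11.2% of all genes passed. That call was kept without library 9 or 10, lost in the other 13 fits that left out 1 library and lost under both other scalings (adjusted p = 0.0953 and 0.078). The share of higher calls among all genes was 22.2%, and 40.6% and 34.2% under those scalings, and the all-gene median -0.12, 0.02 and -0.02. The effect on Cat was also lower in PMN-MDSC but missed the threshold (-1.19, adjusted p = 0.0538). Cat passed under DESeq2 (adjusted p = 0.0244) and in 1 fit over all 9 groups (adjusted p = 0.0272), where Txnrd1 did not (adjusted p = 0.079). In tumors, 0 of the 9 genes differed between the cell types by edgeR (0.0239% of all genes) or DESeq2 (0.263%), and 0 had an unadjusted p-value under 0.05 (8.54%). For Sod2 the difference of effects in M-MDSC was -1.23 (interval -2.16 to -0.30, adjusted p = 0.202), which did not pass.

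Because untreated tumor libraries enter both the comparison with spleen and that with treated tumors, the values of Txnrd1 in M-MDSC are given side by side and not as independent results. It was 2.09 higher in untreated tumor than in untreated spleen and stood at -1.05 in treated against untreated tumor. Treated tumor M-MDSC (80.0 to 213 CPM) and treated spleen M-MDSC (108 to 160.1 CPM) overlapped in level.

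Bulk tumor was compared with sorted cells from untreated tumors to see how far each gene belongs to the sorted fraction. The cytosolic and accessory oxidase genes were far lower in bulk tumor than in either sorted fraction, and the membrane subunits and redox enzymes less so. Ncf1 stood at 11.2, 19.2, 15 and 10.3 CPM in bulk tumor, 76.6-fold below PMN-MDSC and 30.1-fold below M-MDSC. Rac2, at 1.29, 5.62, 5.35 and 5.76 CPM, was 59.9-fold and 39.3-fold lower, and Ncf4, at 2.83, 6.13, 3.29 and 2.83 CPM, 38.3-fold and 38.6-fold lower. Cyba was 6.48-fold and 8.34-fold lower and Cybb 4.41-fold and 6.74-fold lower. The redox enzymes differed less, with Gpx1 3.66-fold and 4.50-fold, Sod2 4.30-fold and 4.56-fold and Txnrd1 2.29-fold and 2.23-fold lower in bulk tumor. Cat, at 26.5, 33.0, 37.9 and 49.2 CPM, was 1.66-fold below M-MDSC (adjusted p = 0.0247), and its log2 difference of -0.48 from PMN-MDSC did not pass (adjusted p = 0.0538). The largest adjusted p among the other 8 genes was 3.8e-04. So 8 of the 9 genes were lower than in PMN-MDSC and all 9 lower than in M-MDSC, where 71.5% and 70.5% of all genes passed in either direction and 29.5% and 29.2% were lower. Groups did not overlap for 8 of the 9 genes in each comparison, as for 66.1% and 64.6% of all genes. The call for Cat against M-MDSC was lost without library 24, 41 or 42 and with RLE factors (adjusted p = 0.058), while Cat against PMN-MDSC passed under DESeq2 (adjusted p = 0.0117) and with TMM factors within the comparison (adjusted p = 0.016). All genes had a median of 0.29 in both comparisons (0.11 to 0.43 under other scalings), and the 9 genes of -2.14 and -2.75. Bulk tumor held a sum of 3554 to 5717 CPM of 6 tumor epithelial markers and of 796 to 1308 CPM of 8 macrophage markers, but 6.30 to 18.1 CPM of neutrophil markers, with 2 of the 9 at 0. Fibroblast sums were 802 to 1059 CPM in bulk tumor, 25.2 to 48.6 CPM in PMN-MDSC and 1.28 to 31.6 CPM in M-MDSC. T cell sums were higher too (6.05 to 35 against 0 to 3.86 and 3.16 to 5.14 CPM). Lower were monocyte (2094 to 3225 against 4336 to 8255 and 8897 to 11734 CPM) and dendritic cell sums (15.9 to 29.8 against 316 to 374 and 93 to 127 CPM). The part of these sums was not tested. Most of the further genes were lower in bulk tumor as well, 19 of 34 tested against PMN-MDSC and 21 of 36 against M-MDSC, while 8 and 7 were higher. Among the higher ones were Gss (5.92-fold and 5.34-fold) and Gclc (4.62-fold and 5.85-fold) of glutathione synthesis and Gsto1 (3.98-fold and 5.34-fold), against PMN-MDSC and M-MDSC.

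The study used DESeq2 and asked for an adjusted p under 0.001 as well as a 2-fold change. Here that cutoff was put on the edgeR results, so the counts are not those of the study's tool. Fewer or equally many of the 9 genes then passed. For treatment in spleen, 0 passed in PMN-MDSC (0.0413% of all genes) and 1, Sod2, in M-MDSC (2.39%). Under DESeq2, Ncf1 in spleen PMN-MDSC met both limits (log2 change 1.07, adjusted p = 6.5e-04), and the other genes were not counted this way. For treatment in tumor, 0 passed in PMN-MDSC (0.253%) and 0 in M-MDSC (0.012%). Rac2, Sod2 and Txnrd1 differed between untreated tumor and spleen in PMN-MDSC (3 genes, 23% of all genes), and Sod2 and Txnrd1 did in M-MDSC (2 genes, 8.58%). Rac2, Ncf1, Ncf4 and Cat differed between the cell types in spleen (4 genes, 23.8%) and 0 genes in tumor (1.64%). In bulk tumor 8 genes differed from each sorted fraction (42.4% and 42.9%). For the interactions the count was 0 throughout (0, 0.0115, 0.107 and 0% of all genes).

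Genes with the pattern most like each of the 9 were sought over the 30 MDSC libraries among 8535 genes, by Pearson's r of log2 CPM. These values describe libraries that share groups, and genes are not independent replicates. Sod2 was most like Ikbke (0.94), Cxcl10 (0.90) and Traf1 (0.89), and Cyba like Rab5if (0.93), Oas3 (0.91) and Adar (0.90). Rac2 was most like Selplg (0.98), Ncf4 like Mcemp1 (0.95), Ncf1 like Asprv1 (0.93) and Cat like Zscan26 (0.95), with Gpx1 nearest to Ncln (0.90). Txnrd1 was most like Bhlhe40 (0.95), Eid3 (0.94) and Nfkbie (0.93), and since Eid3 lies within Txnrd1 on the same strand, its counts are not separate from those of Txnrd1. Cybb was least like any other gene, with Acad8 at 0.76 as the closest. Among the 9 genes themselves, Ncf4 and Rac2 varied together (0.92), as did Cyba and Gpx1 (0.85) and Ncf1 and Rac2 (0.83). Cat varied against Ncf4 (-0.87) and Rac2 (-0.85), and Cybb had r = 0.49 with its partner Cyba and -0.15 with Ncf1.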

How the data were processed

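RNA of sorted or bulk tumor cells was sequenced strand-specifically (SMARTer Pico v2 kit, amplified by PCR without molecular identifiers). The authors aligned reads to mm10 with ContextMap and BWA and deposited featureCounts counts per gene (Subread 1.4.6-p3 in the submitters' processing notes; Gencode v16). Of 35 deposited libraries, 34 were used, and 1 treated tumor M-MDSC library with 10 counts in all was left out. Symbols came from GENCODE M21 (53274 of 53379 identifiers matched). Library totals of 793070 to 8886115 counts limit the precision. CPM were scaled by TMM factors over all 34 libraries, and FPKM divides them by summed exon length. Genes that averaged 25 counts or more were tested with edgeR 4.0.16 (limma 3.58.1, R 4.3.3; robust quasi-likelihood F-test, two-sided) between the groups compared, with Benjamini-Hochberg adjustment over all genes tested. A gene passed at an adjusted p under 0.05. Interaction terms tested differences between treatment effects. Sample titles carry a number, but the table's columns do not, so columns were assigned to groups only, libraries of 1 mouse entered as if independent, and p-values measure the spread between libraries. None of 48 pairs of replicates was identical (chi-square per degree of freedom 6.88 to 55.8). All 9 genes were described in each comparison, together with up to 4 genes per direction with the smallest adjusted p from 48 further redox genes (all matched) and the 3 genes most correlated with each of the 9, except for 1 further redox gene that is not reported here. The genes, lists and tests were chosen with earlier results of these data known. Alternatives were DESeq2 1.42.0, other scaling factors (TMM within the comparison, RLE), other filters (none, or at least 10 counts in every library) and 1 fit over all 9 groups. Further ones were the study's threshold (adjusted p under 0.001 and 2-fold), applied to the edgeR results, and leaving out each library.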

Additional observations from a re-analysis of the deposited data

Results flagged for a closer look

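Of 63 sets of 4 libraries (a gene in a group), 6 held a library that stood apart by Dixon's test, and chance gives about 1 in 20. Cyba stood at 177.3 CPM in library 24 of untreated tumor M-MDSC, which had the smallest total, against 229.8 to 237.9 CPM in the others. Ncf4 stood at 6.13 CPM in library 42 of bulk tumor against 2.83 to 3.29 CPM. Rac2 stood at 180.4 CPM in library 3 of untreated tumor PMN-MDSC against 288.6 to 308.6 CPM, at 263.5 CPM in library 6 of untreated spleen M-MDSC against 220.4 to 225.8 CPM, and at 1.29 CPM in library 41 of bulk tumor against 5.35 to 5.76 CPM. Gpx1 stood at 294.8 CPM in library 7 of untreated tumor PMN-MDSC against 390.0 to 403.9 CPM.

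The difference between treatment effects passed the threshold by edgeR in 3 tests, each dependent on single libraries. For Cat in PMN-MDSC the effect was higher in tumor than in spleen by 1.67 on the log2 scale (adjusted p = 0.0279). That call was lost in 6 of 15 fits that left out 1 library. For Txnrd1 in M-MDSC the difference of tumor minus spleen was -1.81 (adjusted p = 0.0368), lost in 10 of 15. For Txnrd1 in spleen that of PMN-MDSC minus M-MDSC was -0.95 (adjusted p = 0.0498). It was lost in 13 of 15 and under both other scalings and both other filters.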

How the results depend on the processing

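Of 676 log2 differences of single genes recomputed under another tool, scaling, filter, fit or threshold, 605 kept their direction and side of the threshold. So did 702 of 807 recomputed without 1 library. Counts of genes that passed are not among these values. For other values the cause was not tested. The number of the 9 genes that passed for treatment in spleen PMN-MDSC (3) became 5 under DESeq2 and in 1 fit over all 9 groups, 1 with at least 10 counts in every library and 0 at the study's threshold. In tumor PMN-MDSC (0) it became 2 under DESeq2 and 3 without a filter, in spleen M-MDSC (6) 2 in 1 fit over all 9 groups and 1 at the study's threshold, and in tumor M-MDSC (0) 1 under DESeq2, without a filter and in 1 fit over all 9 groups. For tumor against spleen in PMN-MDSC (8) it was 3 at the study's threshold. For PMN-MDSC against M-MDSC in tumor (2) it was 1 in 1 fit over all 9 groups and 0 at the study's threshold. The compartment interaction in PMN-MDSC (1) became 0 with at least 10 counts and at the study's threshold, that in M-MDSC (1) 2 without a filter and 0 at the study's threshold, and the cell type interaction in spleen (1) 2 under DESeq2 and 0 under both other scalings, both other filters and the study's threshold. In 1 fit over all 9 groups that interaction kept a count of 1, with Cat in place of Txnrd1.

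Leaving out 1 library gave counts of 0 to 6 (PMN-MDSC) and 4 to 6 (M-MDSC) for treatment in spleen, 0 for both in tumor, 6 to 8 and 3 to 4 for tumor against spleen, 5 to 6 (spleen) and 1 to 2 (tumor) for the cell types, 8 to 9 for bulk tumor, and 0 to 1, 0 to 2, 0 to 1 and 0 for the interactions. The sign turned only where the threshold was not passed. Gpx1 between cell types in spleen was -0.13 (DESeq2), -0.22 (TMM within the comparison), -0.05 (RLE) and -0.30 to 0.14 without 1 library. Ncf4 between cell types in tumor was 0.02, 0.02 and 0.01, and -0.20 to 0.12 without 1 library, where Sod2 was -0.19 to 0.02 and Txnrd1 -0.11 to 0.16. Treatment effects without 1 library were -0.16 to 1.21 for Cybb in spleen PMN-MDSC, -0.20 to 0.14 for Ncf1 in tumor PMN-MDSC, -0.01 to 0.18 for Cybb in spleen M-MDSC and, in tumor M-MDSC, -0.11 to 0.46 (Ncf1), -0.30 to 0.27 (Ncf4), -0.28 to 0.13 (Rac2) and -0.17 to 0.72 (Sod2). No paired analysis was possible because the numbers in the sample titles are absent from the column names, which were not matched to titles by their order. Counting error limits the low values of Rac2 (10 to 57 counts) and Ncf4 (22 to 32 counts) in bulk tumor and of Cat in treated spleen PMN-MDSC (9 to 31 counts), where the filter of at least 10 counts in every library leaves Cat untested.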
